A study of Macaca fascicularis with 605 samples.

Results

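Bone morphogenetic proteins (BMPs) are secreted ligands, and the 10 genes described here are 3 of those ligands, BMP2, BMP4 and BMP7, and 7 genes that BMP signals are known to induce, ID1, ID2, ID3, ID4, MSX1, MSX2 and SMAD7. They were taken by symbol from a table of 26018 genes measured in single cells of cynomolgus monkey, and all 10 were found. The cells were profiled by SC3-seq, a method that amplifies the cDNA of 1 cell and sequences tags from the 3-prime ends of its transcripts. The study induced primordial germ cell-like cells (PGCLCs) from monkey embryonic stem cells (ESCs) and placed them beside embryo and gonadal cells.

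The 605 cells comprised 540 embryo cells, 28 ESCs, 12 PGCLCs and 25 gonadal germ cells. Preimplantation embryos gave 24 cells at embryonic day 6 (E06), 30 at E07, 86 at E08 and 16 at E09. Postimplantation embryos gave the other cells, of which E13 made up 20.9% and E16 31.7% of all embryo cells, with 39 cells at E14, 56 at E17 and 5 at E20. They came from hand-isolated fragments in which, per the protocol, the amnion, the hypoblast, the endoderm of the yolk sac and the epiblast (EPI) were kept. CMK6 ESCs (13 cells) and CMK9 ESCs (7 cells) grew on mouse feeder cells in medium with 20% knockout serum replacement, LIF (1000 U/ml) and bFGF (4 ng/ml). ESCs of the reporter line 656BTAG (8 cells) grew in AITS medium with bFGF (20 ng/ml) and the Wnt inhibitor IWR1. PGCLCs were reporter-positive cells of the 656BTAG line, sorted on day 8 from aggregates. Every PGCLC aggregate received BMP4 protein (200 ng/ml) together with SCF (100 ng/ml), LIF (1000 U/ml), EGF (50 ng/ml) and the ROCK inhibitor Y27632 (10 µM), in GK15 medium (6 cells) or in aRB27 medium (6 cells). No PGCLC group without added BMP4 was among the groups. Gonadal cells came from E36 (5), E43 (6), E47 (1), E50 (5), E51 (7) and E55 (1), and had been assigned as germ cells by qPCR of their cDNA.

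BMP ligands act as dimers that bind type I and type II receptors on a receiving cell. The receptors phosphorylate SMAD1, SMAD5 and SMAD9, which join SMAD4 and enter the nucleus. The 4 ID genes encode inhibitors of basic helix-loop-helix transcription factors, MSX1 and MSX2 encode homeobox factors, and SMAD7 encodes an inhibitor that limits signals of the receptor family. In early mammalian development BMP signals take part in the formation of mesoderm, extraembryonic tissues and primordial germ cells.

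Levels are RPM, the reads of 1 gene scaled to a total of 1000000 reads in a cell, and were not compared between genes. The 603 cells with a recoverable depth held 151085 to 9774726 reads, with a median of 1977783, so that 1 read was worth 6.62 RPM in the shallowest cell. Which animal or dish a cell came from is not in the labels. Tests therefore compared mean levels, each over at least 5 cells that shared a line and medium or an embryonic day. Such a mean is called a unit here, and the p-values measure the spread between units, which may be partly technical. Most markers named here fitted the labels. SOX2 averaged 377 to 548 RPM in the 3 ESC groups, and LIN28A was likewise highest there. The other listed markers of pluripotent lines, POU5F1 and NANOG, were not highest in ESCs. POU5F1 averaged at most 947.1 RPM in the ESC groups and at least 2278 RPM in the PGCLC groups. NANOG averaged at most 387.8 RPM in the ESC groups, at least 934.1 RPM in the PGCLC groups and at least 690.5 RPM in the gonadal groups. SOX17 averaged 463 to 471 RPM in the 2 PGCLC groups. DDX4 averaged 66.8 to 220 RPM in the 6 gonadal groups against at most 2.43 RPM in ESCs and PGCLCs. Of the 25 gonadal cells, 8 also held at least 3 of 7 gonadal somatic markers at 50 RPM or more, and the summed level of these markers ran from 11.9 to 2631 RPM over gonadal cells. Among these markers GATA4 averaged 56.8 to 63.3 RPM in PGCLCs and 65.6 to 124.4 RPM in the gonadal groups. It therefore does not by itself mark a somatic cell here.

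Embryo cells were grouped into 15 clusters without use of the 10 genes or of other BMP pathway genes. Clusters were called by the cell type whose markers they carried. They gave EPI-like cells (clusters 0, 2 and 4, 29.4% of embryo cells), 87 hypoblast- or endoderm-like cells (clusters 3 and 7, endoderm-like below), 40 trophectoderm-like cells (cluster 5), 52 cells like primitive streak or early mesoderm (clusters 8 and 13, streak-like below), 86 like extraembryonic mesenchyme (clusters 6, 11, 12 and 14) and 24 PGC-like cells (cluster 10). Cluster 1 (62 postimplantation cells) scored about equally for streak and EPI markers and was left unnamed. Its 10 leading genes included SPNS2, MPO, SPP1 and LTF beside the listed streak markers MIXL1, T and SP5. Cluster 9 (30 cells of E06 and E07) was left unnamed as well. In clusters 4, 6, 10 and 12 none of the 10 leading genes was a listed marker of the class, and those names rest on the marker score alone. Cluster 13 scored highest for streak markers, but its 10 leading genes held the listed endoderm marker FOXA2 beside the listed streak markers GSC and LHX1. Values of the streak-like class thus join 2 unlike clusters. Levels by cell class are descriptions, since cells of 1 class are not replicates.

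The 3 ligands were highest in different classes of embryo cells, with overlap. BMP2 was highest in endoderm-like and mesenchyme-like cells, BMP4 in streak-like and mesenchyme-like cells, and BMP7 in streak-like cells and cluster 1. At a level of 20 RPM or more, BMP2 was held by 32.8% of the 540 embryo cells, BMP4 by 30.9% and BMP7 by 27.2%. At least 1 ligand reached that level in 60% of the cells. Exactly 1 did in 175 cells and more than 1 did in 27.6% of the cells, among them 54 of 86 mesenchyme-like and 33 of 52 streak-like cells. All 3 did in 18 cells, of which 13 were streak-like.

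BMP2 was nearly absent at E06, with a mean of 1.11 RPM ± 2.65 (SD, n = 24 cells). Its mean was 70.95 RPM at E07, 272 at E08 and 202.9 at E09, then 89.03 at E13, 2.04 at E14, 107.7 at E16 and 15.7 at E17. At E20 the mean of 5 cells was 111.04 RPM and their median 36.3 RPM. The means of adjacent days thus moved up and down, and the distribution within a day was wide: at E08 the median was 0.63 RPM and the highest cell 2431 RPM. These day means mix cell types, so a larger share of cells of a type and more transcript per cell cannot be told apart in them.

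By class, 76 of 87 endoderm-like cells held BMP2 at 20 RPM or more (87.4%, 95% Clopper-Pearson interval 78.5 to 93.5%), with a mean of 444 RPM. The preimplantation cluster 3 averaged 587 RPM ± 564 (SD, n = 49 cells) and the postimplantation cluster 7 averaged 258 RPM ± 338 (n = 38). Endoderm-like cells made up 16.1% of embryo cells and held 65.6% of the summed BMP2 level. Mesenchyme-like cells held a further 29.8%, with BMP2 at 20 RPM or more in 65 of 86. Streak-like cells averaged 40.7 RPM, with 28 of 52 at that level. BMP2 reached 20 RPM in 2 EPI-like cells (1.26%, interval 0.153 to 4.47%) and in 0 of 40 trophectoderm-like cells, which allows up to 8.81%. The low E14 mean went with a sample of cells that held none of the endoderm-like class and 1 mesenchyme-like cell.

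BMP4 was low on every preimplantation day, with means of 1.32 RPM at E06, 5.997 at E07, 1.25 at E08 and 0.287 at E09. Only 2 cells of these days, both at E07, reached 20 RPM. The postimplantation means were 35.9 RPM at E13, 20.2 at E14, 82.97 at E16, 35.9 at E17 and 46.3 at E20, all above every preimplantation day. Streak-like cluster 8, which is led by MESP1, MSGN1 and APLNR, averaged 213.5 RPM ± 208 (SD, n = 37 cells), with BMP4 at 20 RPM or more in 34 of 37 cells and a highest cell of 865 RPM. The other streak-like cluster, 13, led by CHRD, DKK4 and CER1, averaged 8.40 RPM ± 14.1 (n = 15). Mesenchyme-like clusters lay between, from 34.6 RPM in cluster 14 to 132.1 RPM in cluster 6. Streak-like and mesenchyme-like cells held 37.1% and 37.7% of the summed level while making up 9.63% and 15.9% of the cells. Endoderm-like cells averaged 1.27 RPM, with 1 of 87 at 20 RPM or more, and PGC-like cells averaged 0.357 RPM, with 0 of 24, which allows up to 14.2%.

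BMP7 showed means of 3.83 to 8.06 RPM on the 4 preimplantation days and 20.99 RPM at E13, 34.02 at E14, 28.1 at E16, 48.4 at E17 and 42.6 at E20. Cluster 13 had the highest mean of the 15 clusters, 95.8 RPM ± 82.7 (SD, n = 15 cells), followed by cluster 1 with 57.1 RPM ± 68.4 (n = 62) and cluster 8 with 42.2 RPM ± 45.3 (n = 37). The spread over cells within each of these clusters was about as large as the mean. Cluster 13 therefore held BMP7 with little BMP4, and cluster 8 held both. EPI-like cells averaged 1.46 to 2.198 RPM from E07 to E09 and 15.4 to 36.7 RPM from E13 to E17. The E13 mesenchyme-like clusters 12 and 14, both positive for BMP2 and BMP4, averaged 0.907 and 1.35 RPM, and no cell of either reached 20 RPM.

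**Figure D1:**
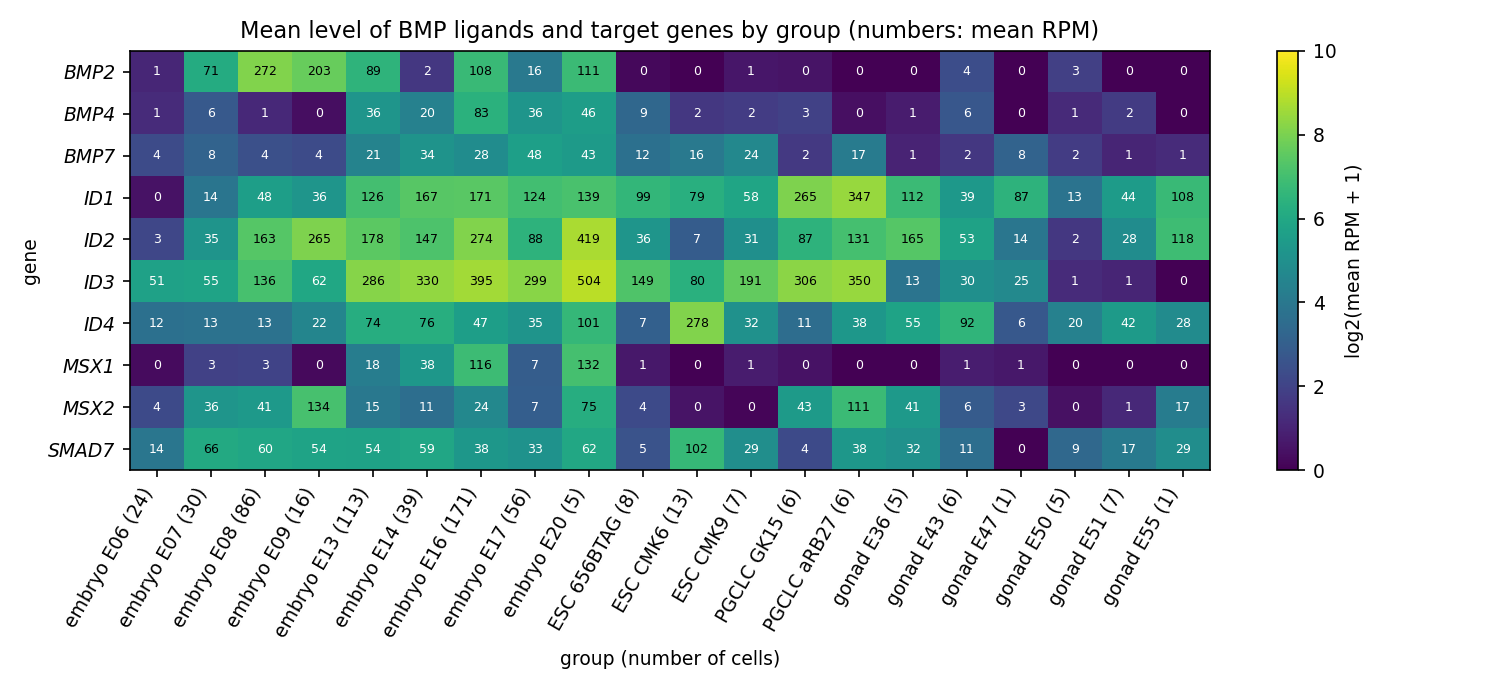
Mean level of each gene (rows) in each of the 20 groups (columns, number of cells in brackets). The colour is log2(mean RPM + 1), and the printed number is the mean RPM. BMP4, BMP7 and MSX1 are darker on E06 to E09 than on E13 to E20, BMP2 is brightest at E08 and E09, and the PGCLC columns are bright for ID1, ID3 and MSX2.

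ID genes were present in most embryo cells. At least 1 ID gene reached 20 RPM in 505 of 540 embryo cells (93.5%), and in 85.6% of the cells without any of the 3 ligands at that level (185 cells). Every cell of E13, E14 and E16 held an ID gene at 20 RPM or more, against 15 of 24 at E06 and 20 of 30 at E07. The 4 ID genes differed in where they were highest.

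ID1 was nearly absent at E06 and present on every later day. Its mean was 0.398 RPM at E06, 13.6 at E07, 48.03 at E08 and 36.2 at E09, and 123.8 to 171.3 RPM on the 5 postimplantation days. No E06 cell reached 20 RPM, and the highest of the 24 was at 7.70 RPM. Among classes, all 24 PGC-like cells held ID1 at 20 RPM or more, from 75.6 to 436 RPM with a median of 251.4 RPM, and their mean of 236 RPM ± 110 (SD over cells) had the smallest spread for its size of any class. Cluster 1 averaged 313 RPM ± 293 (n = 62) and EPI-like cluster 0, all but 2 of its cells from E16 and E17, averaged 210.7 RPM ± 219.1 (n = 67). Trophectoderm-like cells averaged 4.84 RPM, with 4 of 40 at 20 RPM or more.

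ID2 followed another pattern. It was already 162.8 RPM at E08 and 265 RPM at E09, and the postimplantation means ran from 87.96 RPM at E17 to 419 RPM at E20, so the ranges of the 2 stages overlapped. Mesenchyme-like cells had the highest class mean, 386 RPM ± 437 (SD, n = 86 cells), with 82 of 86 at 20 RPM or more. Endoderm-like cells averaged 240 RPM and EPI-like cells 51.8 RPM, with 62 cells at that level. In trophectoderm-like cells ID2 averaged 116.2 RPM and reached 20 RPM in 26 of 40 cells, where ID1 was near absent.

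ID3 averaged 51.3 RPM at E06, 55.2 at E07, 135.5 at E08 and 61.9 at E09, and 286 to 504 RPM on the postimplantation days. The highest cluster mean was that of cluster 1, 700 RPM ± 607 (n = 62), with 61 of 62 cells at 20 RPM or more. Streak-like clusters 8 and 13 averaged 434 and 446 RPM and endoderm-like cluster 7 averaged 414 RPM. PGC-like cells had the lowest mean among the clusters that hold only postimplantation cells: their mean was 59.8 RPM ± 110.6 (n = 24), their median 11.3 RPM, and 10 of 24 reached 20 RPM. All 24 PGC-like cells thus held ID1 at 20 RPM or more and 14 of them held ID3 below it, while in cluster 1 both were high.

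ID4 had low preimplantation means of 12.02 to 22.4 RPM and postimplantation means of 35.02 to 100.7 RPM. It was highest in endoderm-like cluster 7, at 147.5 RPM ± 143.3 (n = 38), against 8.24 RPM ± 22.6 in the preimplantation endoderm-like cluster 3 (n = 49). Cluster 1 averaged 106.1 RPM. Mesenchyme-like cluster 6, the highest for ID2 and MSX1, averaged 4.33 RPM for ID4.

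The MSX genes were highest in different classes, MSX1 in mesenchyme-like and MSX2 in trophectoderm-like cells. MSX1 averaged 0.189 to 3.08 RPM from E06 to E09 and 6.66 RPM at E17, 17.8 at E13, 37.9 at E14, 115.5 at E16 and 132.1 at E20. Cluster 6 held MSX1 at 307 RPM ± 280 (n = 39 cells), with 36 of 39 at 20 RPM or more, cluster 8 at 128.9 RPM ± 144.7 (n = 37) and cluster 1 at 84.2 RPM ± 171.2 (n = 62). Mesenchyme-like cells held 54.1% of the summed MSX1 level. MSX2 was highest in trophectoderm-like cells, at 86.03 RPM ± 78.4 (n = 40), with 35 of 40 at 20 RPM or more, and 247 RPM in the 4 such cells of E09. Of the 24 PGC-like cells, 14 held MSX2 at 20 RPM or more, with a median of 24.2 RPM over all 24. EPI-like cluster 2 of E13 and E14 was near 0 for both, with means of 0.101 RPM for MSX1 and 1.19 RPM for MSX2.

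SMAD7 was found in every class, reaching 20 RPM in 317 of 540 embryo cells (58.7%). Its highest cluster mean was in preimplantation EPI-like cluster 4, 93.6 RPM ± 67.3 (n = 41), with 38 of 41 cells at 20 RPM or more. The postimplantation EPI-like clusters averaged 33.6 RPM (cluster 2) and 18.5 RPM (cluster 0). PGC-like cells averaged 69.8 RPM ± 82.5 (n = 24).

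**Figure D2:**
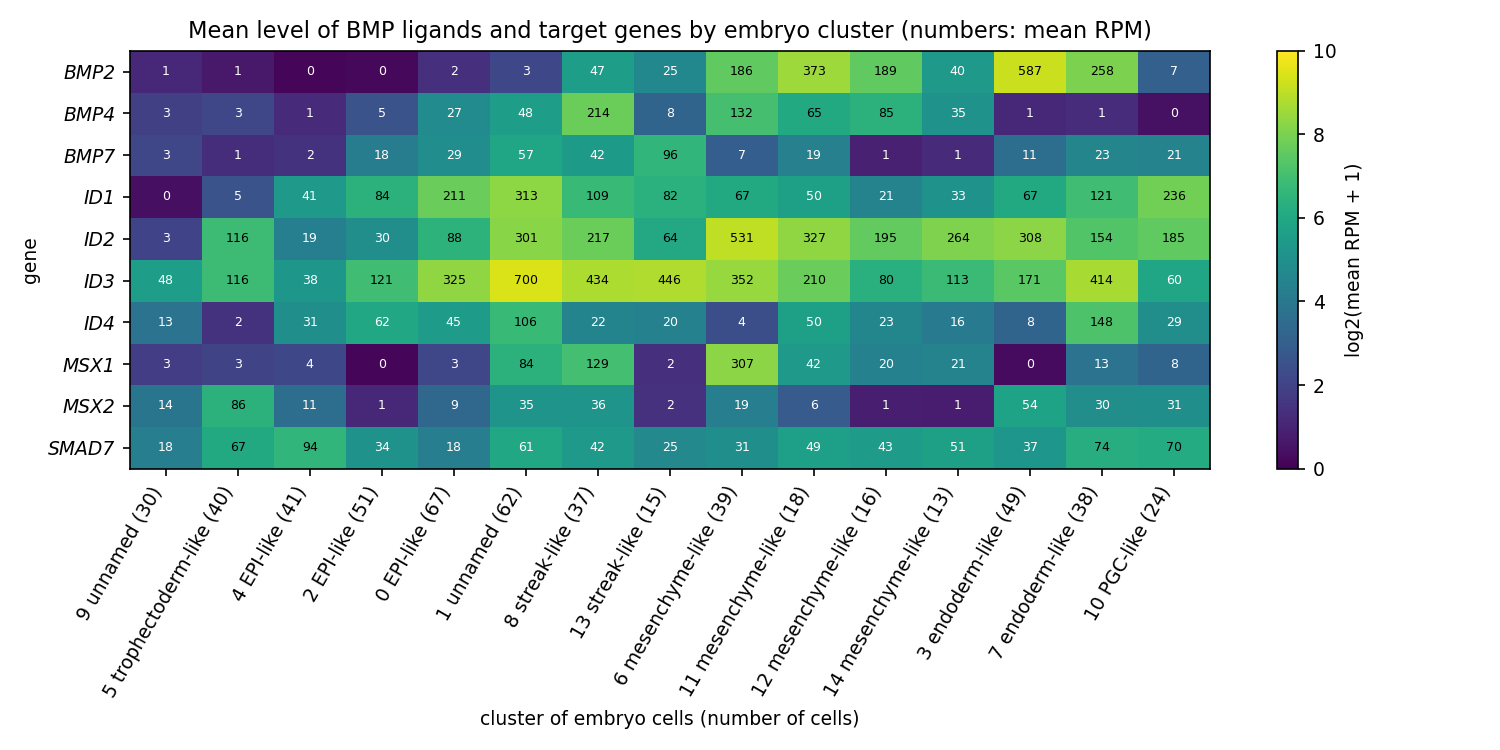
Mean level of each gene (rows) in the 15 clusters of embryo cells (columns, cell class and number of cells). The colour is log2(mean RPM + 1), and the printed number is the mean RPM. BMP2 is brightest in the endoderm-like columns and in mesenchyme-like clusters 6, 11 and 12. BMP4 is brightest in cluster 8 and the same mesenchyme-like clusters, and the PGC-like column is bright for ID1 and dark for BMP4.

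Ligand and target were next compared cell by cell, as a description. A correlation here is Pearson's r of log2(RPM + 1) over cells, and the cells share libraries and depth. Over the 540 embryo cells, 5 of the 21 ligand and target pairs had r of 0.3 or more and none was at -0.3 or less. These were BMP4 with MSX1 (r = 0.585), BMP2 with ID2 (0.387), BMP7 with ID1 (0.377), BMP4 with ID2 (0.37) and BMP4 with ID3 (0.313). The r of log2 depth with the members ran from -0.139 for BMP7 to 0.212 for BMP2, and with ID2 it was 0.176. The part of depth in these correlations was not tested.

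BMP4 and MSX1 were found together in 87 cells. MSX1 reached 20 RPM in 52.1% of the cells with BMP4 at 20 RPM or more (mean 122.5 RPM) and in 29 of the 373 cells below it (7.77%, mean 11.2 RPM). Within streak-like cells r was 0.638 (n = 52), and MSX1 reached 20 RPM in 23 of 36 cells with BMP4 and 1 of 16 without. In cluster 1, r was 0.518 (n = 62), with counts of 18 of 29 and 5 of 33. Within mesenchyme-like cells r was 0.287 (n = 86), and MSX1 was frequent on both sides, in 42 of 67 cells with BMP4 and 9 of 19 without. The relation was thus seen within the streak-like class and cluster 1, and was weaker in the mesenchyme-like class, which held the highest MSX1 levels. The streak-like class joins cluster 8, high in both genes, with cluster 13, low in both, and within cluster 8 alone r was 0.35 (n = 37).

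In cluster 1, BMP4 also went with ID2 (r = 0.515), ID4 (0.516), MSX2 (0.516) and ID1 (0.41), while its r with ID3 was 0.102. Mean ID2 in that cluster was 450 RPM in the 29 cells with BMP4 at 20 RPM or more and 169.3 RPM in the other 33. In EPI-like cells, BMP4 had r of 0.379 with ID1, 0.376 with ID3 and 0.354 with ID2. ID1 reached 20 RPM in 31 of 32 EPI-like cells with BMP4 and averaged 292 RPM there, against 72.4% of the EPI-like cells below that level, with a mean of 84.9 RPM. BMP7 in EPI-like cells had r of 0.416 with ID3 and 0.37 with ID1. These EPI-like cells span both stages, and BMP4, BMP7, ID1 and ID3 were all lower in the preimplantation cells, so stage runs along each of these correlations. Within postimplantation cluster 0 alone (n = 67), 5 of the 21 pairs had r of 0.3 or more, the highest at 0.671. In postimplantation cluster 2 (n = 51) 1 pair did, at 0.343, and in preimplantation cluster 4 (n = 41) none did. The part of stage was not tested.

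BMP2 and ID2 had an r of 0.399 within endoderm-like cells (n = 87), where ID2 reached 20 RPM in 65 of 76 cells with BMP2 and 5 of 11 without. Within mesenchyme-like cells it was 0.165 (n = 86), and within streak-like cells -0.0892 (n = 52), with ID2 at 20 RPM or more in 20 of 28 cells with BMP2 and 20 of 24 without. No ligand and target pair reached 0.3 within mesenchyme-like or trophectoderm-like cells. Correlations at -0.3 or less were also found within parts of the embryo, most of them with BMP2. In cluster 8 they were BMP2 with ID3 (-0.477) and with ID1 (-0.358), in cluster 6 BMP2 with ID4 (-0.372), and in cluster 3 BMP7 with ID2 (-0.321). By day, BMP2 had r of -0.445 with ID1 at E13 and -0.349 at E16, of -0.402 with MSX1 and -0.392 with SMAD7 at E08, and of -0.3 with ID4 at E07. In PGC-like cells, of which 2 held BMP2 at 20 RPM or more, BMP2 had r of -0.356 with ID4 and -0.302 with SMAD7. At 0.3 or more were 2 of 21 pairs in cluster 8, 4 in cluster 6, 4 in cluster 3 and 3 in PGC-like cells. By day, 12 of 21 pairs reached 0.3 at E14, 6 at E16, 5 at E06 and 4 at E13. Days E07 and E08 held 2 each and E17 held 1, and no day had more than 2 pairs at -0.3 or less. ID1 was at 20 RPM or more in 24 of 24 PGC-like cells, of which 18 held none of the 3 ligands at that level. BMP7 averaged 21.04 RPM in these cells, with 4 of 24 at 20 RPM or more.

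**Figure D3:**
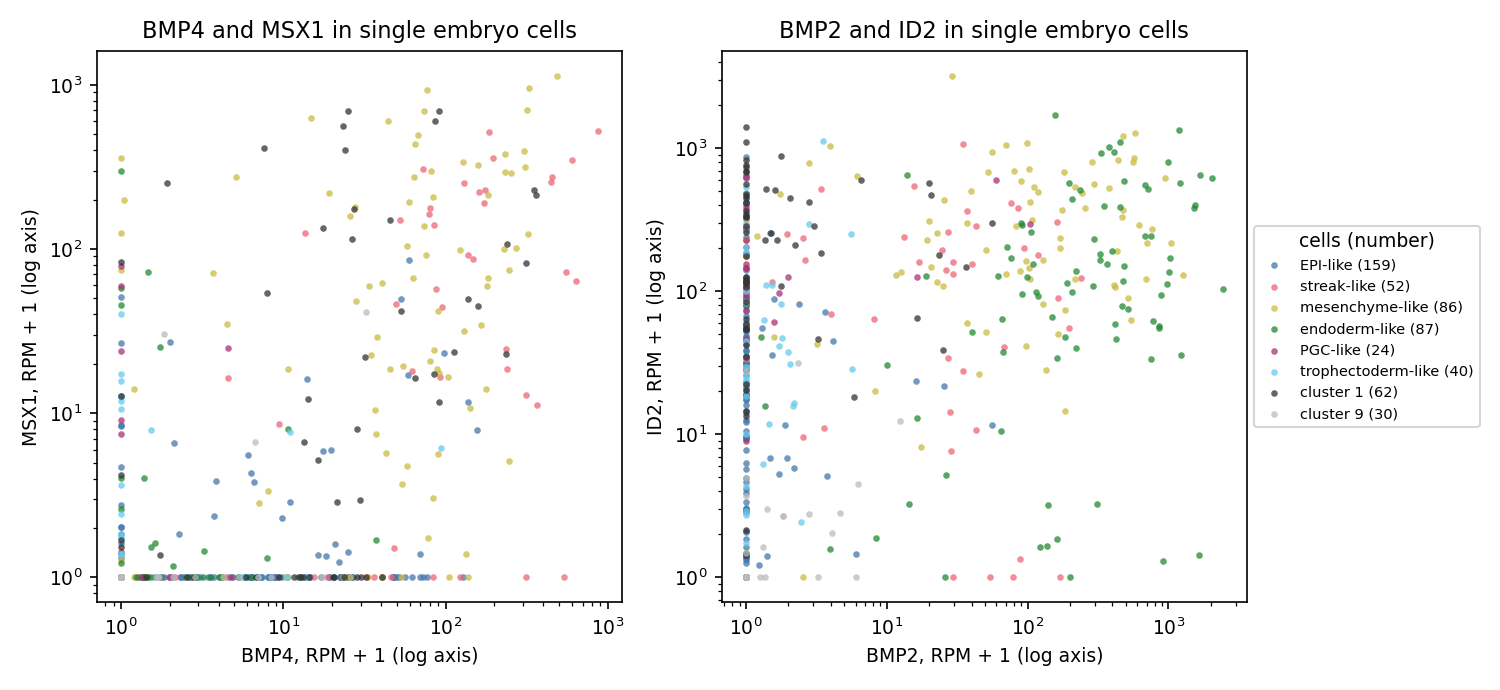
Each point is 1 of the 540 embryo cells, coloured by class, with BMP4 against MSX1 (left) and BMP2 against ID2 (right), as RPM + 1 on log axes. Streak-like, mesenchyme-like and cluster 1 cells fill the upper right of the left panel, and endoderm-like and mesenchyme-like cells fill the upper right of the right panel. The line of points at 1 on an axis are cells with no read of that gene.

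The change across implantation was tested over days with limma's moderated test on log2(unit mean + 1 RPM). In all embryo cells, 6 of the 10 genes were called higher at an adjusted p under 0.05 on the 5 postimplantation days than on the 4 preimplantation days, and none was called lower (none at an unadjusted p under 0.05 either, and none with edgeR's quasi-likelihood test on recovered reads). Of the 10011 genes tested, 30.7% were called, 15.3% higher and 15.4% lower. The 6 were BMP4, BMP7, ID1, ID3, ID4 and MSX1, and for each of them every postimplantation day lay above every preimplantation day. The share of all genes tested that separate in this way is not given here.

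BMP4 rose by 3.97 ± 0.52 (log2 change ± SE, adjusted p = 0.000421), from a mean of 2.21 RPM ± 2.57 (SD, n = 4 days) to 44.3 RPM ± 23.6 (n = 5 days). MSX1 rose by 4.14 ± 0.83 (adjusted p = 0.00408), with days from 0.189 to 3.08 RPM before and from 6.66 to 132.1 RPM after implantation. ID1 rose by 3.38 ± 0.83 (adjusted p = 0.0117), from 24.6 to 145.4 RPM. BMP7 (2.56 ± 0.33), ID3 (2.33 ± 0.29) and ID4 (2.04 ± 0.33) rose as well, with adjusted p of 0.000371, 0.000306 and 0.00134. The ID1 call was lost with edgeR (adjusted p = 0.068) and without the filter on low genes (0.0568), and the other 5 were also called by edgeR. BMP2 changed by -0.61 ± 1.46 (adjusted p = 0.782), ID2 by 1.91 ± 1.00 (0.169), MSX2 by -0.67 ± 0.88 (0.597) and SMAD7 by 0.18 ± 0.42 (0.771), and for these 4 the days of the 2 stages overlapped.

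Titles of the cells carry codes whose meaning the labels do not give, and 3 codes held at least 3 cells of each stage. Code MS008, with 2 postimplantation cells and 1 preimplantation cell, was left out. Within code MS126 (53 postimplantation and 15 preimplantation cells) and code MS132 (54 and 13 cells) all 6 called genes were higher after implantation. The log2 ratio of the means was 3.96 and 4.22 for BMP4 in these codes, and its lowest value among the 6 genes was 0.21, for ID4 in MS126. Within code MS133 (11 and 43 cells) BMP4 (4.70), MSX1 (2.44), ID4 (2.38) and ID1 (0.12) were higher, while BMP7 (-0.56) and ID3 (-0.03) were not. The cell types in a code differ between the stages, and their part in these values was not tested.

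EPI-like cells offer a comparison within 1 class, although different clusters hold it at the 2 stages (cluster 4 before implantation, clusters 0 and 2 after). In this class 5 of the 8 members tested were called higher on E13 to E17 (4 days) than on E07 to E09 (3 days) and 1 was called lower, with 35.3% of 9088 genes called, 16.6% higher and 18.7% lower. BMP7 rose by 3.04 ± 0.39 (adjusted p = 0.000113), from 1.92 RPM ± 0.40 (SD, n = 3) to 24.1 RPM ± 9.34 (n = 4). ID3 rose by 2.97 ± 0.48 (adjusted p = 0.000503), from 29.3 to 224.7 RPM. BMP4 rose by 2.85 ± 0.69 (adjusted p = 0.00662), ID2 by 1.90 ± 0.54 (0.0154) and ID1 by 1.64 ± 0.37 (0.00465). The ID2 call was lost without E07 (adjusted p = 0.0718) and when cells were averaged on the log scale (0.13). With no filter on low genes the calls of ID2 (0.123), BMP4 (0.0643) and ID1 (0.0606) were lost. ID1 means by day were 28.3, 41.9 and 60.7 RPM at E07, E08 and E09, and 75.04, 102.2, 252 and 155.3 RPM at E13, E14, E16 and E17.

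SMAD7 was the gene called lower in EPI-like cells. Its means were 130.9 RPM at E07, 78.4 at E08 and 86.1 at E09, and 24.1 at E13, 45.2 at E14, 18.1 at E16 and 17.1 at E17. These days did not overlap, and the share of all genes tested that separate in this way is not given here. SMAD7 fell by 1.95 on the log2 scale (SE 0.33, adjusted p = 0.000733). ID4 in the same cells changed by 0.61 ± 0.30 (adjusted p = 0.141) and MSX2 by -1.37 ± 0.63 (0.107). MSX2 passed the threshold when E16 was left out (adjusted p = 0.0236), with log averages (0.0212) and at a cluster resolution of 1.5 (0.00938). ID4 passed without E09 (0.0142) and with edgeR (0.0299). BMP2 and MSX1 were too low in EPI-like cells to be tested.

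In endoderm-like cells, on E13 and E16 against E07 to E09, 2 of 8 members tested were called higher and none lower by limma (4 and 0 at an unadjusted p under 0.05, and 0 and 0 called by edgeR), with 20.6% of 9143 genes called, 11.9% higher and 8.68% lower. These were ID4 and ID3, both inhibitors of helix-loop-helix factors. ID4 rose by 5.74 ± 0.93 (adjusted p = 0.00415), with means of 0.131, 11.1 and 0.577 RPM at E07, E08 and E09 and 132.9 RPM at E13, and a mean over E13 and E16 of 148.4 RPM ± 22.01 (SD, n = 2). ID3 rose by 2.11 ± 0.48 (adjusted p = 0.0174), from 112.8 RPM ± 83.9 (SD, n = 3) to 415 RPM ± 6.28 (n = 2). Both calls were lost when E13 or E16 was left out, which leaves 1 postimplantation day that is assumed to vary like the rest (adjusted p of 0.0523 to 0.105), with edgeR (0.0584 and 0.0642) and with no filter (0.0784 and 0.145). BMP2 changed by -0.92 ± 0.51 (adjusted p = 0.241), from 302, 651 and 540 RPM to 133.9 and 466 RPM.

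The 2 classes were then set against each other in 1 fit, in which 1177 of 10319 genes had changes that differed between them. Both classes had units from E07, E08, E09, E13 and E16, and these were not paired by day. The change of ID4 was larger in endoderm-like than in EPI-like cells by 5.13 ± 0.94 (log2, adjusted p = 0.00284). The change of SMAD7 differed by 3.58 ± 0.63 (adjusted p = 0.00223), with a mean of 25.5 RPM before and 71.9 RPM after implantation in endoderm-like cells. Within endoderm-like cells alone the SMAD7 change was not called by limma (1.635 ± 0.528, adjusted p = 0.0588). The difference was -3.15 ± 1.00 for BMP7 (adjusted p = 0.0531), -2.90 ± 1.02 for ID2 (0.0805), -2.53 ± 1.07 for BMP4 (0.144), 0.40 ± 0.85 for ID1 (0.807) and -0.87 ± 0.79 for ID3 (0.527).

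Of the 32 other pathway genes tested in all embryo cells, 7 were called higher and 4 lower, together 34.4% against 30.7% of all genes tested. Higher were the ligand gene BMP5, the type II receptor gene ACVR2B, the coreceptor gene RGMA and the modulators FST, BAMBI, TWSG1 and BMPER, which bind ligands or block receptors. FST, the follistatin gene, averaged 5.01 RPM ± 5.19 (SD, n = 4 days) before and 185 RPM ± 99.7 (n = 5) after implantation, and BAMBI, a decoy receptor, averaged 113.7 and 358 RPM. Those lower included the transcription factor genes TBX3 and GATA2, and GDF6. GATA2 averaged 253 RPM before and 11.8 RPM after implantation. It is a listed trophectoderm marker and a leading gene of trophectoderm-like cluster 5, of whose 40 cells only 4, from E16, were postimplantation. These means mix cell types, so a change in the share of a type and in the level per cell cannot be told apart. The median change of the 32 genes was 0.57, against -0.05 over all genes tested and 2.18 over the 10 members.

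In EPI-like cells 4 of 22 other pathway genes were called higher, ACVR2B, RGMA, FST and BAMBI, and 3 lower, HEY1 and TBX3 among them, together 31.8% against 35.3% of all genes tested. In endoderm-like cells 9 of 27 were called higher and 4 lower, together 48.1% against 20.6%. The higher ones there were the receptor and coreceptor genes BMPR1A, ACVR2A, ACVR2B and RGMA and the antagonist or modulator genes NOG, CER1, FST, TWSG1 and BMPER. NOG, which encodes the BMP antagonist noggin, averaged 2.02 RPM ± 1.75 (SD, n = 3 days) before and 118.2 RPM ± 65.3 (n = 2) after implantation, and CER1, which encodes the secreted antagonist cerberus, 29.6 and 1437 RPM. The lower ones included the ligand gene BMP6, from 220 to 29.2 RPM, together with TBX3 and GATA2. Over all days CER1 averaged 631 RPM in endoderm-like and 701 RPM in streak-like cells and 0.414 RPM in EPI-like cells. CHRD, the chordin gene, averaged at most 3.15 RPM in the named classes other than the streak-like one. Both CER1 and CHRD were leading genes of cluster 13, 1 of the 2 streak-like clusters.

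In culture, BMP7 was the ligand gene most often present. It reached 20 RPM in 9 of 28 ESCs (32.1%), in 1 of 12 PGCLCs and in 0 of 25 gonadal cells. BMP2 reached 20 RPM in none of the 28 ESCs, 12 PGCLCs or 25 gonadal cells, and its highest single value was 17.1 RPM, in an E43 gonadal cell. MSX1 did not exceed 5.00 RPM in any of these 65 cells. BMP4 transcript averaged 9.21 RPM in 656BTAG ESCs, where 2 of 8 cells held 38.03 and 30.5 RPM, and 2.07 and 2.39 RPM in CMK6 and CMK9 ESCs. In PGCLCs, to which BMP4 was added as protein, BMP4 transcript averaged 2.82 RPM (GK15) and 0.332 RPM (aRB27), and the highest of 12 cells was at 10.3 RPM. BMP7 averaged 11.9, 15.7 and 24.2 RPM in 656BTAG, CMK6 and CMK9 ESCs, 2.14 and 16.8 RPM in GK15 and aRB27 PGCLCs, and 0.984 to 8.06 RPM in the gonadal groups. In aRB27 PGCLCs 1 of 6 cells held 81.4 RPM of BMP7 and the next highest 8.18 RPM.

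MSX2 was the member called between PGCLCs and ESCs, although the call was lost under several alternatives. The ESC group means were 3.80 RPM (656BTAG), 0.425 (CMK6) and 0.0943 (CMK9), and no ESC exceeded 11.4 RPM. The PGCLC means were 42.9 RPM in GK15 (lowest 0, median 19.2, highest 135.2 RPM, n = 6 cells) and 111.5 RPM in aRB27 (lowest 1.25, median 95.3, highest 293 RPM, n = 6). Both PGCLC units lay above all 3 ESC units, while 5 of the 12 PGCLCs, at 0, 1.25, 3.87, 4.70 and 5.39 RPM, lay within the range of single ESCs. The share of all genes tested with units in such an order is not given here. MSX2 rose by 5.17 ± 1.28 on the log2 scale (limma, adjusted p = 0.0181), and it was the only member called of 7 tested (2 higher and 0 lower at an unadjusted p under 0.05), where 11.1% of 10557 genes were called, 4.97% higher and 6.1% lower. The call was lost without CMK6 (adjusted p = 0.059), CMK9 (0.0691), GK15 (0.071) or aRB27 (0.129), with no filter (0.107) and with edgeR (0.0712), which called no member, and the change stayed between 4.49 and 5.84 when any 1 unit was left out. The 2 PGCLC groups and the 656BTAG ESCs, and no other group, shared 1 code in their titles, MS168, and the means there were 77.2 RPM over 12 PGCLCs and 3.80 RPM over 8 ESCs.

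ID1 lay higher in PGCLCs in every unit without passing the test. The means were 98.6, 79.3 and 58.3 RPM in 656BTAG, CMK6 and CMK9 ESCs and 265 and 347 RPM in GK15 and aRB27 PGCLCs. The lowest PGCLC held 167.5 RPM, a level exceeded by 2 of the 28 ESCs, at 225.3 and 186 RPM. The change was 1.97 ± 0.63 (adjusted p = 0.0582), and it passed with a pseudocount of 10 RPM (0.0257), with cells averaged on the log scale (0.042) and without the gonadal E36 or E50 unit, which share the estimate of spread (0.0189 and 0.0181). ID2 (2.38 ± 1.19, adjusted p = 0.224) and ID3 (1.304 ± 0.93, adjusted p = 0.416) were not called, although both PGCLC units lay above all ESC units. These orders of 2 units against 3 are descriptions, and their share among all genes tested is not given here. ID3 averaged 149.3, 80.3 and 191.1 RPM in the ESC groups and 306 and 350 RPM in the PGCLC groups. Within the 656BTAG line and title code MS168, the PGCLC mean over the ESC mean was 1.63 for ID1, 1.56 for ID2, 1.13 for ID3, 1.61 for ID4, 1.91 for SMAD7 and -0.30 for BMP7, as log2 ratios. For ID4 and SMAD7 this sign is opposite to that of the change from all 3 ESC lines.

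The ESC lines differed among themselves in ID4 and SMAD7. ID4 averaged 7.34 RPM ± 7.28 (SD, n = 8 cells) in 656BTAG, 278 RPM ± 215.4 (n = 13) in CMK6 and 32.2 RPM ± 27.4 (n = 7) in CMK9. The lowest CMK6 cell, at 43.3 RPM, lay above the highest 656BTAG cell, at 17.5 RPM. SMAD7 averaged 4.84, 101.6 and 29.4 RPM in the same lines, and again all 13 CMK6 cells (lowest 38.9 RPM) lay above all 8 656BTAG cells (highest 14.1 RPM). The 656BTAG line differed from CMK6 in medium and title code as well, which cannot be told apart from line. CMK6 and CMK9 shared the medium, and within title code MS130 ID4 averaged 244.7 RPM in 10 CMK6 cells and 32.2 RPM in 7 CMK9 cells, and SMAD7 99.06 and 29.4 RPM. Single cells of the 2 lines overlapped there for both genes. The changes of ID4 (-0.98 ± 1.08, adjusted p = 0.622) and SMAD7 (-0.95 ± 1.10, adjusted p = 0.647) from ESCs to PGCLCs turned positive, to 0.37 and 0.04, without CMK6.

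Gonadal germ cells held little ID3. Its mean was 13.3 RPM at E36, 30.3 at E43, 1.34 at E50 and 1.08 at E51, and the single cells of E47 and E55 held 25.3 and 0 RPM. Across the 25 cells 4 reached 20 RPM, 1 at E36 (66.3 RPM), 2 at E43 (33.4 and 132.7 RPM) and the E47 cell. No unit overlapped with ESCs or PGCLCs, and the share of all genes tested that separate in this way is not given here. The log2 change of ID3 was -4.28 ± 0.78 from ESCs (adjusted p = 0.0016) and -5.59 ± 0.88 from PGCLCs (adjusted p = 0.00177). With edgeR the adjusted p against PGCLCs was 0.0509. Within title code MS132, which held 4 gonadal cells and 3 CMK6 ESCs, ID3 averaged 35.06 and 48.5 RPM, a log2 ratio of -0.46, and 1 of the 4 gonadal cells, the E43 cell at 132.7 RPM, held most of that gonadal level.

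Against ESCs, 2 of 7 members tested were called lower in gonadal cells, ID3 and BMP7, and none higher (0 at an unadjusted p under 0.05, and 0 by edgeR), with 20.8% of genes called, 10.7% higher and 10.1% lower. BMP7 averaged 0.984, 2.06, 2.39 and 1.06 RPM in the 4 gonadal units and its change was -2.78 ± 0.78 (adjusted p = 0.02). That call was lost without CMK6 (0.07), without CMK9 (0.103), with no filter (0.0633), with units of 1 cell (0.0604) and with edgeR (0.102), and within title code MS132 the log2 ratio was -1.21. Against PGCLCs, 2 of 7 were called lower, ID3 and ID1, and none higher (0 at an unadjusted p under 0.05, and 0 by edgeR), with 12.4% of genes called, 7.45% higher and 4.95% lower. These comparisons share the gonadal units. ID1 averaged 111.7 RPM at E36, 39.02 at E43, 13.2 at E50 and 44.3 at E51, against 265 and 347 RPM in PGCLCs, and its change was -2.88 ± 0.60 (adjusted p = 0.00746). The ID1 call was lost without GK15 (adjusted p = 0.0558), without aRB27 (0.0604) and with no filter (0.0636).

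The mean of MSX2 varied between gonadal days, which was not tested. The mean was 41.2 RPM at E36, with single cells at 4.48, 61.3, 46.9, 1.01 and 92.2 RPM, and 6.29 at E43, 0.352 at E50 and 1.20 at E51. The single cells of E47 and E55 held 3.46 and 17.25 RPM. Only E36 cells reached 20 RPM. Against PGCLCs the change was -3.68 ± 1.21 (adjusted p = 0.061), and without E36 it was -4.66 (0.00936). It also passed with a pseudocount of 10 RPM (0.0173) and after quantile normalization (0.0437). ID2 averaged 165.4 RPM at E36, 53.4 at E43, 2.09 at E50 and 27.9 at E51. In the single cells of E47 and E55 it was at 14.4 and 117.6 RPM, so the latest cell lay above the E43, E50 and E51 means. The ID2 change from ESCs was 0.53 ± 0.99 (adjusted p = 0.753) and turned to -1.10 without the 8 gonadal cells that held somatic markers. Leaving these cells out left 4 cells at E36 and 2 at E43, fewer than the 5 asked of a unit in the main fit. Without those cells ID1 against PGCLCs was -4.21 (adjusted p = 0.0604). ID4 was present on each gonadal day, from 5.76 RPM in the E47 cell to 92.3 RPM at E43, where all 6 cells held at least 45.4 RPM.

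**Figure D4:**
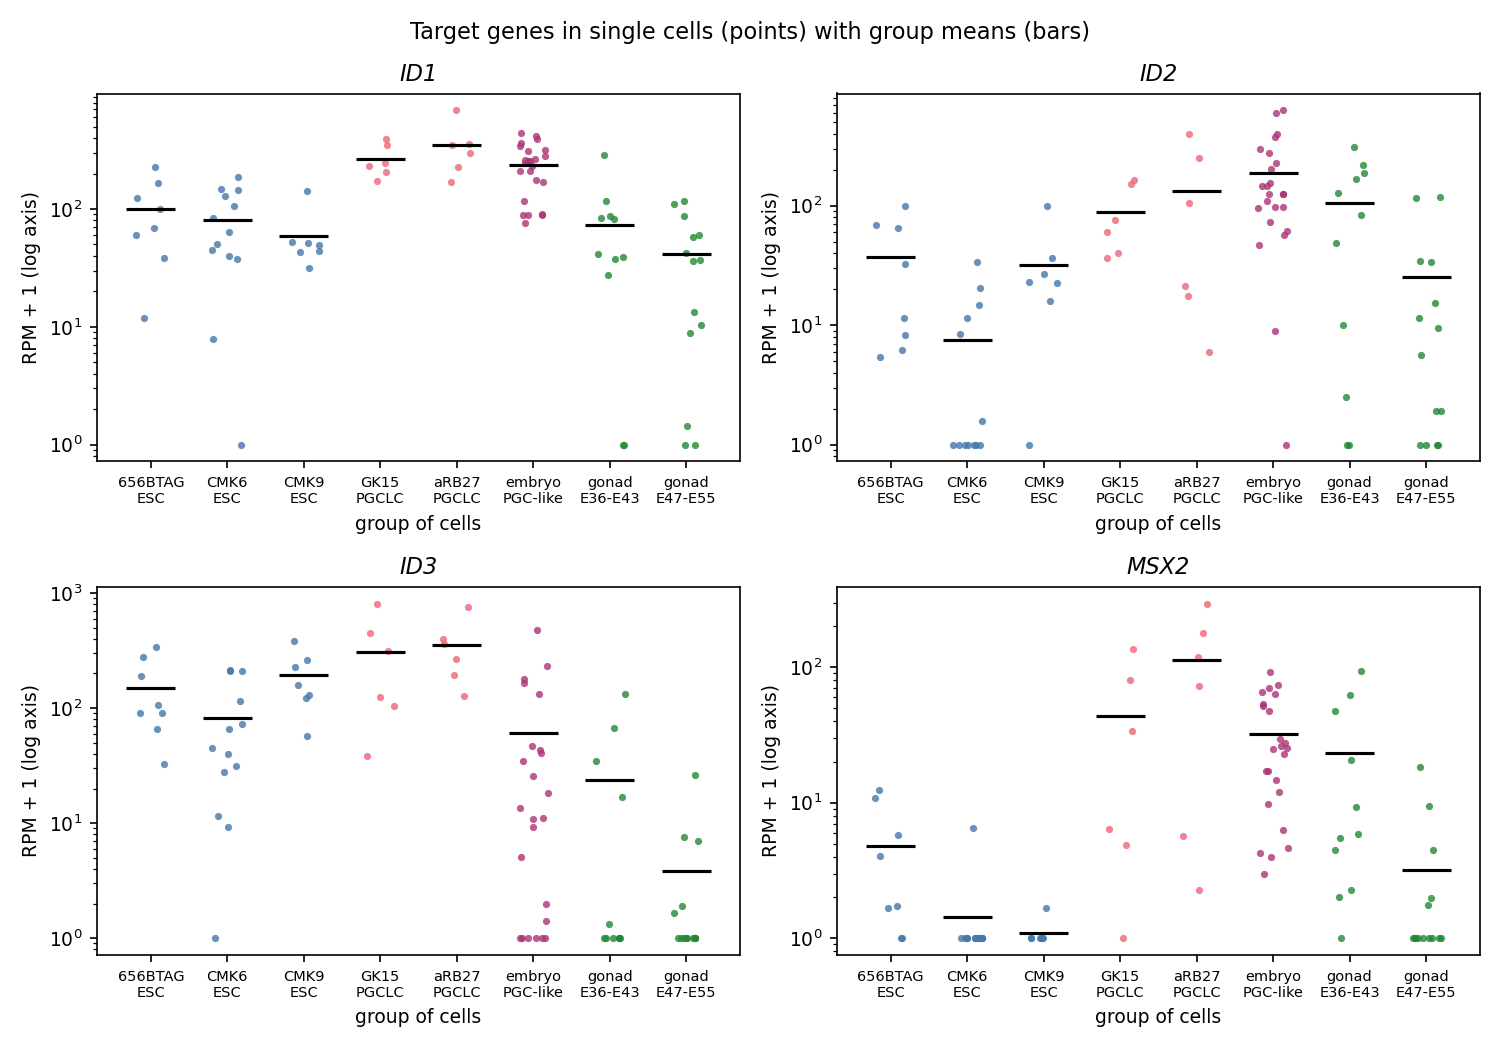
Single cells (points) and group means (bars) of ID1, ID2, ID3 and MSX2 in ESC lines, PGCLCs, PGC-like embryo cells and gonadal cells, the last in 2 sets of days (E36 to E43 and E47 to E55), as RPM + 1 on log axes. PGC-like cells lie near PGCLCs for ID1, and between PGCLCs and gonadal cells for ID3.

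PGC-like embryo cells can be set beside PGCLCs as levels, without a test, since the class was defined by clustering. ID1 averaged 236 RPM in the 24 PGC-like cells and 306 RPM over the 2 PGCLC units. MSX2 had a median of 24.2 RPM in PGC-like cells and 52.6 RPM over the 12 PGCLCs. ID2 averaged 185 and 109.2 RPM, and SMAD7 69.8 and 20.9 RPM. ID3 averaged 59.8 and 328 RPM. Both kinds of cell held little BMP4 transcript. By day, ID3 in PGC-like cells averaged 7.61 RPM at E13 (n = 7), 41.2 at E16 (n = 11) and 54.2 at E17 (n = 4), with 1 E14 cell at 478 RPM and 1 E20 cell at 233 RPM.

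Of 24 other pathway genes tested in the culture and gonadal groups, 6 were called higher and 2 lower in PGCLCs than in ESCs, together 33.3% against 11.1% of all genes tested. GREM1, which encodes the secreted BMP antagonist gremlin, averaged 193 RPM ± 41.1 (SD, n = 2 units) in PGCLCs against 2.11 RPM ± 3.20 (n = 3) in ESCs. SOSTDC1, another secreted antagonist gene, averaged 209 and 1.99 RPM. The transcription factor genes GATA3 (181 and 4.09 RPM), TFAP2A (41.3 and 0.678 RPM) and HAND1 (68.3 and 1.21 RPM) were higher as well, as was the type I receptor gene BMPR1B. FST (4.73 and 246 RPM) and RGMA (3.81 and 32.5 RPM) were lower. The median change of the 24 genes was 0.15, against -0.17 over all genes tested and 1.304 over the 7 members tested.

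In gonadal cells, 6 of 24 were called against ESCs, 25% beside 20.8% of all genes tested, with 4 higher: BMPR1B (57.5 and 0.350 RPM), the type II receptor gene BMPR2 (120 and 36.8 RPM), SOSTDC1 and GATA3. The 2 called lower were SMAD4, the shared partner of the signal SMADs (28.7 and 90.8 RPM), and FST. Against PGCLCs 6 were called, 25% beside 12.4% of all genes tested. Higher were RGMA and SMAD5 (130 and 49.5 RPM), and lower were GREM1 (11.4 and 193 RPM), SOSTDC1 (29.1 and 209 RPM), GATA3 and HAND1. Among embryo classes, GREM1 averaged 65.1 RPM in PGC-like cells and at most 0.424 RPM in the other named classes, SOSTDC1 averaged 18.7 and at most 1.08 RPM, and BMPR1B 26.4 and at most 0.669 RPM.

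**Figure D5:**
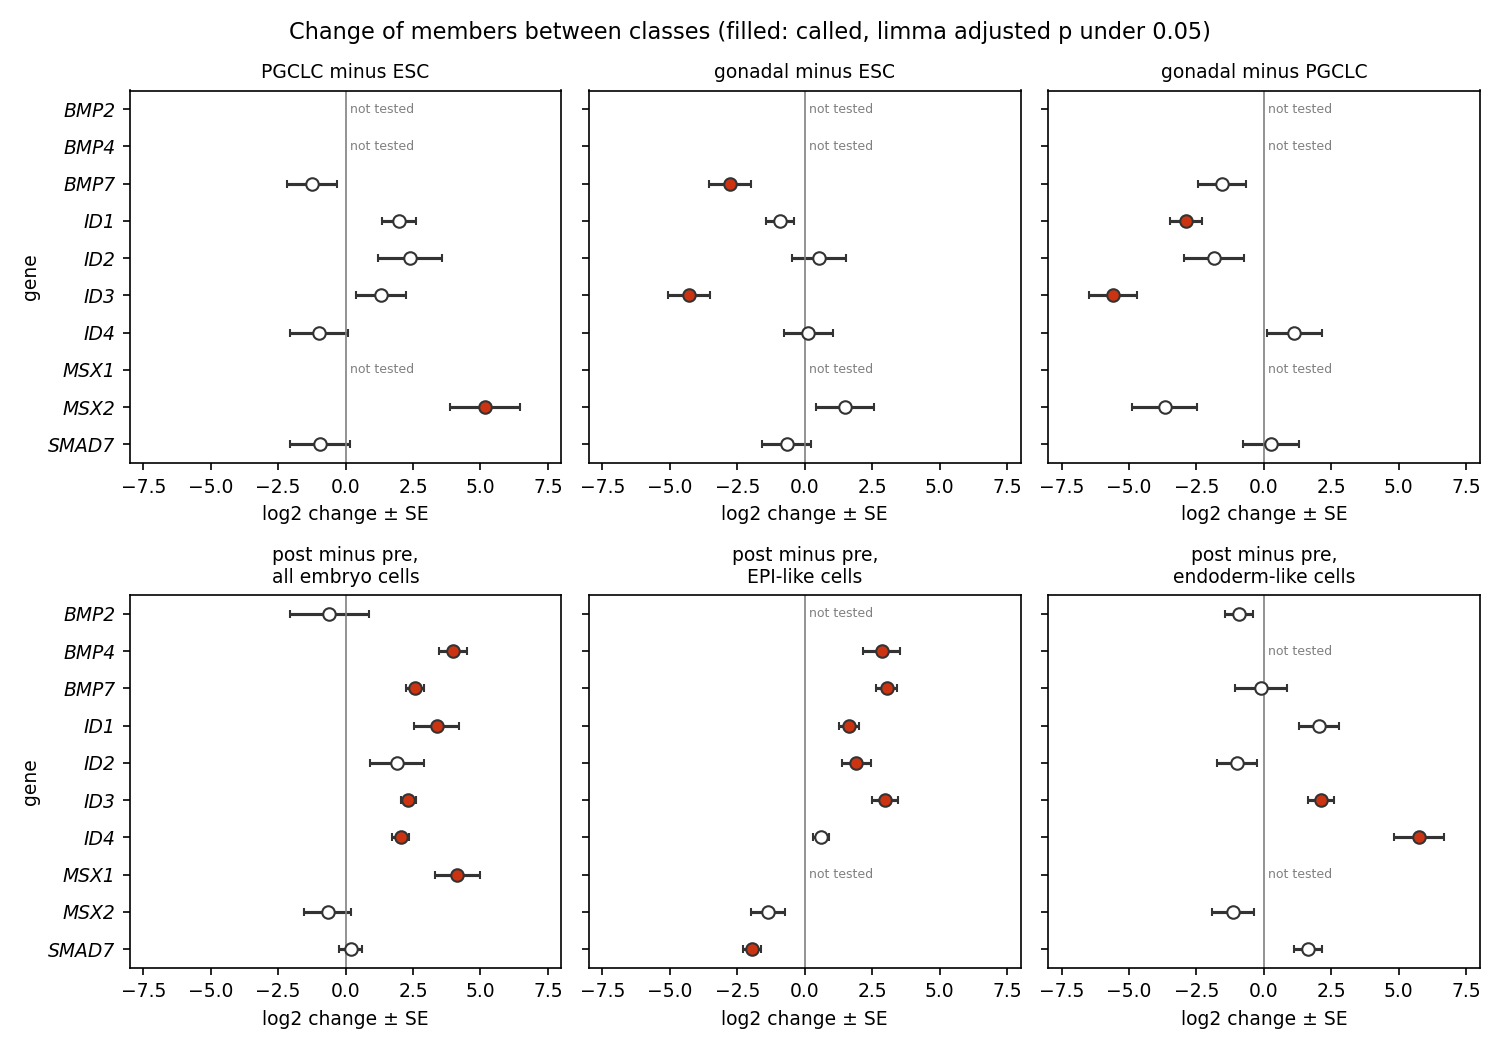
Log2 change with its standard error of each member in 6 comparisons (panels). Filled points are called at an adjusted p under 0.05, and members too low for a test are marked. MSX2 is the filled point in the PGCLC minus ESC panel, ID3 lies left of 0 in both gonadal panels, and 6 points are filled in the panel of all embryo cells.

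Likeness to other genes was measured as Pearson's r of log2(unit mean + 1 RPM) over the 18 units, and the 3 nearest of 10486 candidate genes are named for each ligand. BMP2 was most like RSPO3 (0.971), F2 (0.935) and GSN (0.93). BMP4 was most like HOXB6 (0.923), SP5 (0.911) and HOXB3 (0.887), and MSX1 was close to HOXB3 (0.985) and HOXB6 (0.944). BMP7 was most like TUBB (0.925), LIMD2 (0.91) and EPHA2 (0.878). For the remaining targets the nearest genes were YWHAQ for ID1 (0.923), NUDT22 for ID3 (0.911), TPP1 for ID2 (0.823), TC2N for SMAD7 (0.821), ZNF566 for ID4 (0.806) and SPCS3 for MSX2 (0.802). The units mix cell types in different shares, and these values carry no test.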

How the data were processed

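SC3-seq reads of 605 single cells were processed by the authors, and the deposited table gives RPM (reads scaled to 1000000) for each gene in each cell. The tools were Cufflinks 2.2.0, TopHat 1.4.1 and cutadapt 1.3, per the submitters' processing notes. The genome build is not given in the sources used here. RPM values of 549 cells were whole multiples of 1 read for nearly all genes (99.81% of values above 0 within 0.1 read). Those reads were used for an edgeR alternative.

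Members were found by symbol. Unit means over at least 5 cells were tested as log2(RPM + 1) with limma 3.58.1, for genes with at least 10 RPM in at least 2 units. P-values were adjusted by Benjamini and Hochberg over all genes, and calls were made at 0.05. ESC, PGCLC and gonadal units shared 1 fit. Embryo cells were clustered with scanpy 1.11.5 (1500 variable genes, 20 components, 10 neighbours, Leiden resolution 1), leaving out members and pathway genes. No doublet caller was run. The scripts were tested on simulated data. Alternatives were a pseudocount of 10, no filter, log averages, quantile normalization, leaving out each unit, units of 1 cell, cluster resolutions of 0.5 and 1.5, title codes and edgeR 4.0.16. The members and lists were chosen with earlier results of these data known.

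Named genes were the 10 members, every other pathway gene that was called with at least 20 RPM in the higher class, and the 3 genes most like each member. GDF6, HEY1, TBX3 in EPI-like cells, BMPR1B in PGCLCs and the class levels of CER1, CHRD, GREM1, SOSTDC1 and BMPR1B were named after their values were seen. In the RefSeq gene table used here, BMP4, BMP7, ID2 and ID3 each overlap 1 other gene, so reads may be shared. Some genes that this rule selects are not reported here.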

Additional observations from a re-analysis of the deposited data

Results flagged for a closer look

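ID4 at E09, with a mean of 22.4 RPM, stood apart from the other preimplantation days, which lay between 12.02 and 12.66 RPM. SMAD7 at E06, with a mean of 14.1 RPM, stood apart from the other preimplantation days at 54.5 to 65.8 RPM. Such a gap was looked for in 40 groups of unit means, and chance gives it in about 1 of 20.

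The change of ID4 across implantation was larger in endoderm-like than in EPI-like cells by 5.13 on the log2 scale (limma, adjusted p = 0.00284). The change of SMAD7 differed between these classes by 3.58 (adjusted p = 0.00223), with the EPI-like mean lower and the endoderm-like mean higher after implantation. Of these 2 changes, the endoderm-like one was not called on its own (limma, adjusted p = 0.0588).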

How the results depend on the processing

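In all embryo cells the 6 called genes kept 6 calls whichever day was left out. Genes called fell from 1169 to 710 without the filter and to 587 with edgeR for PGCLCs against ESCs, from 2196 to 1430 with units of 1 cell and to 1368 with edgeR for gonadal cells against ESCs, and from 1309 to 585, 580 and 564 without the filter, with units of 1 cell and with edgeR for gonadal cells against PGCLCs. In endoderm-like cells 1882 genes became 467 without the filter, 2989 with log averages and 1184 with edgeR. Leaving out 1 unit gave 473 to 1450, 1307 to 2299, 382 to 1511 and 451 to 1651 genes in these 4 comparisons.

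For PGCLCs against ESCs the 1 member called higher became 2 with a pseudocount of 10 and with log averages, 0 without the filter and with edgeR, and 0 to 2 when 1 unit was left out. For gonadal cells the 2 members called lower against ESCs became 1 without the filter, with units of 1 cell and with edgeR, and 1 to 3 when 1 unit was left out. Those 2 against PGCLCs became 1 without the filter, without the cells holding somatic markers and with edgeR, and 1 to 3 when 1 unit was left out. In EPI-like cells the 5 called higher became 2 without the filter, and the 1 called lower became 2 with log averages and at resolution 1.5, and 1 to 2 when 1 day was left out. In endoderm-like cells the 2 called higher became 0 without the filter and with edgeR and 0 to 4 when 1 day was left out, and the 0 called lower became 1 with log averages and 0 to 1 when 1 day was left out. At an unadjusted p under 0.05 the endoderm-like cells held no lower member. Fewer units or more genes were tested in some of these settings, and the cause was not tested.

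Members that were not called changed sign in places. For PGCLCs against ESCs, leaving out 1 unit moved ID4 from -2.16 to 0.37, SMAD7 from -2.46 to 0.57 and BMP7 from -2.48 to 0.019. For gonadal cells against ESCs, ID4 was -0.068 with a pseudocount of 10, -0.45 with units of 1 cell, -1.06 with edgeR and -1.05 to 1.49 when 1 unit was left out, ID2 was -1.10 without the cells holding somatic markers and -0.29 to 1.62 when 1 unit was left out, and SMAD7 was -1.75 to 0.31. For gonadal cells against PGCLCs, SMAD7 was -0.26 with log averages, -0.24 after quantile normalization, -0.26 with units of 1 cell, -0.38 without the cells holding somatic markers and -1.24 to 1.79 when 1 unit was left out. In all embryo cells, BMP2 was 0.25 with log averages and -2.17 to 0.28 when 1 day was left out, SMAD7 -0.32 to 0.39 and MSX2 -1.58 to 0.030. BMP7 in endoderm-like cells was 0.10 with a pseudocount of 10, 0.36 with log averages and -0.48 to 1.51 when 1 day was left out. Of the called members, BMP7 (-0.56) and ID3 (-0.035) turned negative within title code MS133.

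The median change of all genes was -0.17 for PGCLCs against ESCs and 0.14 for gonadal cells against PGCLCs, and no call on a member rests on a change of that size. No paired analysis was made. Replicate numbers only name cells and pair no units, and values within a shared title code are given without a test. EPI-like and endoderm-like units shared days E07, E08, E09, E13 and E16, but were not paired by day. Values near 1 read of the shallowest cells limit what can be said of the lowest levels.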

Other observations

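In the early embryo, the unnamed cluster 9 of E06 and E07 was often below 20 RPM for these genes. Of its 30 cells, 13 held neither a ligand nor an ID gene at 20 RPM or more, and 8 held no member at that level. ID3 was the ID gene most often present there, in 12 cells, and SMAD7 reached 20 RPM in 8. In the gonad at E50, 3 of 5 cells held neither a ligand nor an ID gene at 20 RPM or more.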
